A study of Mus musculus with 16 samples.

Results

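Collagens are the triple-helical proteins of the extracellular matrix, and each gene described here encodes 1 chain of such a helix. All protein-coding genes of the deposited counts table whose symbol is Col, a number, a and a number were taken, which gave 44 of the 45706 genes in the table. RNA was sequenced from ear skin clipped from 8 male mice of the inbred strain C57BL/6J, with no treatment or genetic change named in the labels, and each mouse gave 1 library at 24 months and 1 at 30 months. The labels call the first age young and the second old, and the true ages lay between 23.8 and 24.4 months and between 29 and 30.1 months, with 5.0 to 6.3 months between the clips of a mouse. The first clip came from 1 ear and the second from the other ear, so age, ear and the order of the clips cannot be told apart. The mice are named by the numbers in their labels (13, 14, 21, 29, 43, 50, 64 and 75).

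Fibrillar collagens, chiefly types I, III and V, are laid down by fibroblasts and give the dermis its tensile strength. Types II, IX and XI build the fibrils of cartilage, which forms the core of the outer ear, and type X belongs to hypertrophic cartilage. Type IV with types VII, XV, XVII and XVIII belongs to or anchors to basement membranes. The FACIT collagens (fibril-associated collagens with interrupted triple helices) sit on the surface of fibrils or near them, type VI forms beaded filaments around cells, and type VIII forms short-chain networks. The classes here do not overlap. Chains of types II, IX and XI are counted as cartilage chains only, not again as fibrillar or FACIT chains.

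The libraries held between 22967222 and 36162431 reads counted on genes, with medians of 28877001 at 24 months and 29138399 at 30 months. Markers of keratinocytes, fibroblasts and cartilage were present at both ages, with summed levels of 20049 to 30547, 2258 to 4413 and 507 to 1061 CPM (reads of a gene scaled to the library size with TMM factors) over all libraries. The cartilage sum rested mainly on Cytl1, a cytokine-like protein of cartilage (medians of 458 and 598 CPM at 24 and 30 months), while Matn1, a cartilage matrix protein, lay between 0 and 0.149 CPM. The 30-month library of mouse 50 stood apart. It had the highest fibroblast sum (4413 CPM, against at most 4258 in any other library) and the highest sum of macrophage markers (1184 CPM, against at most 652 elsewhere). For many of the chains, values without mouse 50 are also given.

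Counts above 0 were found in all 16 libraries for 42 of the 44 genes, and 40 had at least 10 counts in each. Levels are compared between genes only as RPKM, the CPM per kilobase of exon in the GENCODE M21 annotation. The length pools the exons of all transcripts of a gene, so the order of the genes depends in part on it. In RPKM, 30 genes had a mean above 1. Col17a1, which encodes the transmembrane collagen of hemidesmosomes that ties basal keratinocytes to the basement membrane, had the highest mean of all (327 RPKM over 16 libraries). Next came the chains of the main dermal fibrils, Col1a1 with 93.6, Col3a1 with 77.8 and Col1a2 with 76.3 RPKM, followed by the type VI chain Col6a1 with 50.8 RPKM. The ranges of these 3 fibril chains overlapped widely, for example 21.8 to 456 RPKM for Col1a1 and 13.03 to 349 RPKM for Col3a1. Within a library, Col3a1 to Col1a1 lay between 0.710 and 0.992 per kilobase at 24 months, so Col1a1 was the higher in each. At 30 months this ratio lay between 0.598 and 1.10. Col1a1 to Col1a2 lay on both sides of 1 at both ages (0.932 to 1.31 and 0.813 to 1.49). Col7a1, the anchoring fibril collagen beneath the epidermis, averaged 29.6 RPKM and Col16a1, a FACIT chain, 18.4 RPKM. At the low end were Col26a1 (0.0329), Col19a1 (0.0265), Col6a5 (0.0417) and Col6a4 (0.00332 RPKM), the last with 0 counts in 5 of 8 libraries at 24 months and 4 of 8 at 30 months.

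**Figure D1:**
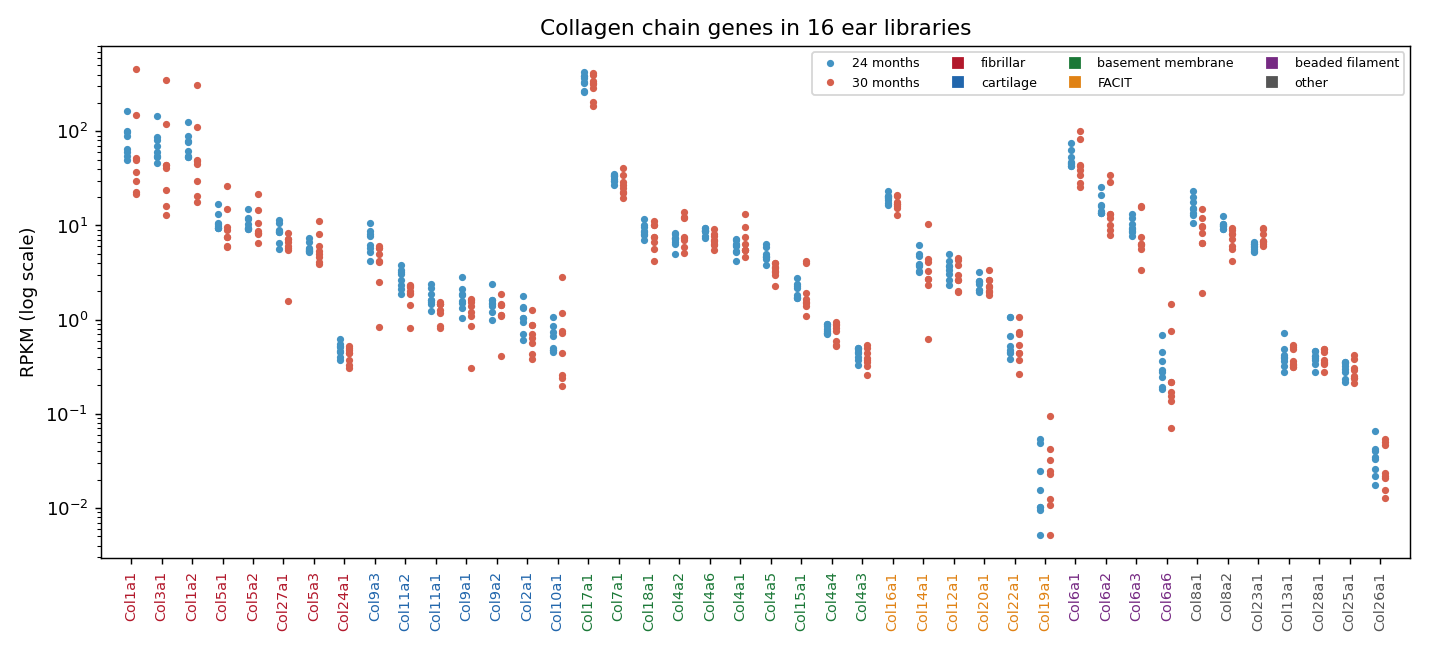
Level of the 42 collagen chain genes with counts in every library, as RPKM on a log axis, with 8 points for 24 months (blue) and 8 for 30 months (red) per gene and the gene names coloured by class. Col17a1 lay highest (mean 327 RPKM), and Col1a1, Col3a1 and Col1a2 had 1 red point, mouse 50, far above the rest.

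To ask how these genes differed between the ages within the same animal, counts of all genes were fitted with a term for each mouse. A total of 43 collagen chain genes passed the filter on low counts, Col6a4 being the exception, among 21526 genes tested. None of the 43 passed an adjusted p of 0.05 in the quasi-likelihood test of edgeR (adjusted after Benjamini and Hochberg), nor did any other gene (0% of the genes tested). At an unadjusted p under 0.05, 11 collagen chain genes were lower at 30 months, against a background of 7.18% of all genes tested, and 1 was higher, against 4.86%. The fitted log2 fold change (30 against 24 months) was below 0 for 38 of the 43 genes (88.4%), while it was below 0 for 48.3% of all genes tested. Their median was -0.22, against 0.01 over all genes tested. In 4 genes, Col2a1, Col11a1, Col4a5 and Col8a2, the 30-month library was the lower one in 8 of 8 mice, a pattern that 1.69% of all genes tested showed. No collagen chain gene was higher in 8 of 8 mice (background 1.08%). None had every 30-month library below every 24-month library (background 0.125%). Some chains of a class can come from the same cells and several share a trimer, so these counts are not counts of independent events.

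The choice of test and 1 mouse changed these counts. DESeq2's Wald test, run as an alternative, called 6 collagen chain genes at an adjusted p under 0.05, all lower at 30 months (background 0.763% of 19791 genes lower and 0.389% higher), namely Col2a1, Col8a1, Col4a5, Col8a2, Col11a1 and Col11a2. Without mouse 50, 18 genes were lower at an unadjusted p under 0.05 in edgeR (background 7.11%) and 1 was higher (background 4.5%), again with none past the adjusted threshold. In bulk tissue, fewer cells of a type and less RNA per cell cannot be told apart.

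**Figure D2:**
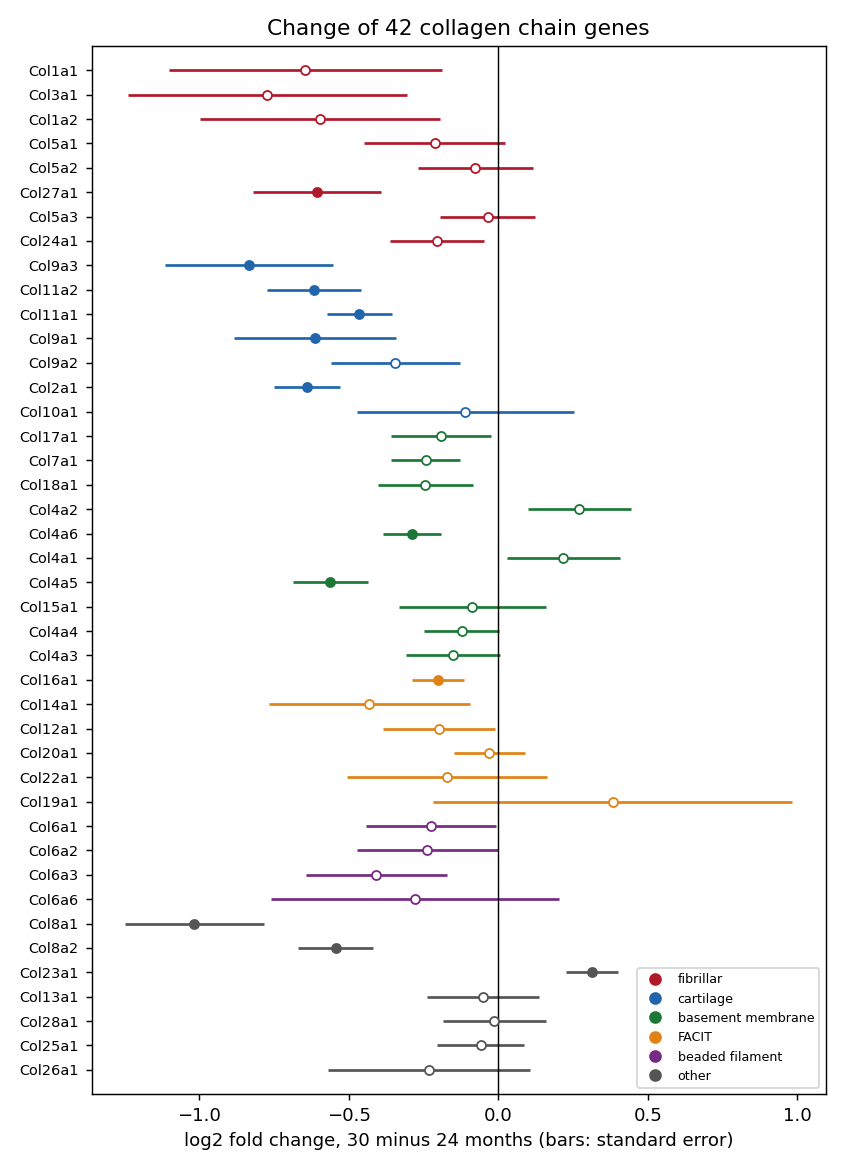
Fitted log2 fold change (30 minus 24 months) with its standard error for 42 collagen chain genes from edgeR with a term for each mouse, coloured by class, with filled points at an unadjusted p under 0.05. All 7 cartilage and all 8 fibrillar chains lie left of 0, from -0.83 for Col9a3 to -0.04 for Col5a3, and Col6a5, with 0 counts in 2 libraries, is not drawn.

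Among the 8 fibrillar chains the median log2 fold change was -0.40. All 8 values were below 0 (48.3% over all genes tested), but only Col27a1 was lower at an unadjusted p under 0.05 (background 7.18%). The mice differed among themselves. The median change over the fibrillar chains was 1.37 in mouse 50 and 0.31 in mouse 21, and lay between -0.99 and -0.52 in the other 6 mice. Without mouse 50 the class median was -0.52, with 5 chains lower at an unadjusted p under 0.05 (background 7.11% of all genes tested). Leaving out each mouse in turn gave class medians between -0.52 and -0.28, the latter without mouse 29. Without the mouse term in the fit the class median was 0.03.

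Col1a1 (ENSMUSG00000001506, chr11:94936224-94953042 in GRCm38, plus strand) encodes the major chain of type I collagen, the main protein of skin. Its lowest, median and highest CPM were 324, 502 and 1082 at 24 months and 143, 283 and 2990.4 at 30 months. Of the 8 mice, 6 were lower at 30 months and the ranges overlapped, since mice 50 and 21 were higher at 30 months. The log2 fold change was -0.64 with a standard error (SE) of 0.46 (edgeR Benjamini-Hochberg adjusted p = 0.584). The mean was 559.8 ± 249 CPM (SD, n = 8) at 24 months and 669 ± 976 CPM at 30 months, so the means stood in the opposite order to the medians. Without mouse 50, Col1a1 had a log2 fold change of -1.01 (SE 0.23, edgeR adjusted p = 0.211). Without mouse 64 it was -0.47 (SE 0.49, edgeR adjusted p = 0.751).

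Col3a1 (chr1:45311538-45349706, plus strand), the chain of the finer type III fibrils, had a lowest, median and highest level of 450.3, 643 and 1410 CPM at 24 months and 128, 415 and 3424 CPM at 30 months. The same 2 mice, 50 and 21, were higher at 30 months and the other 6 were lower. Its log2 fold change was -0.77 (SE 0.47, edgeR adjusted p = 0.531) with all mice and -1.14 (SE 0.25, edgeR adjusted p = 0.211) without mouse 50. Without mouse 29 it was -0.60 and without mouse 64 it was -0.62. Col1a2, the second chain of type I collagen, was at -0.59 with all mice and -0.93 without mouse 50. Together the type I and III chains took 0.143% to 0.409% of the reads on genes at 24 months (median 0.203%) and 0.048% to 1.03% at 30 months (median 0.128%), the highest being mouse 50 and the next 0.358%. The type V chains, which nucleate fibrils, were at -0.21 for Col5a1, -0.08 for Col5a2 and -0.04 for Col5a3 with all mice. In mouse 50 their changes were 1.49, 1.25 and 0.62, and without it Col5a1 was at -0.44 (unadjusted p = 0.00995, edgeR adjusted p = 0.295), Col5a2 at -0.26 and Col5a3 at -0.13. Col24a1, a minor fibrillar chain, was at -0.20 with only 68 to 146 counts per library.

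Col27a1 (chr4:63214004-63334991, plus strand) encodes a fibrillar chain known chiefly from cartilage. It ranged from 72.6 to 147 CPM around a median of 113 at 24 months and from 20.4 to 109 CPM around 81.9 at 30 months. It was lower at 30 months in 7 of 8 mice, mouse 64 being the exception, and mouse 29 was far the lowest at 30 months. Col27a1 had a log2 fold change of -0.60 (SE 0.21, unadjusted p = 0.0171, edgeR adjusted p = 0.327). In contrast to Col1a1 and Col3a1, mouse 50 was lower (log2 change -0.56) and mouse 64 was higher (0.59), as they also were in Col24a1 (-0.24 and 0.14).

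**Figure D3:**
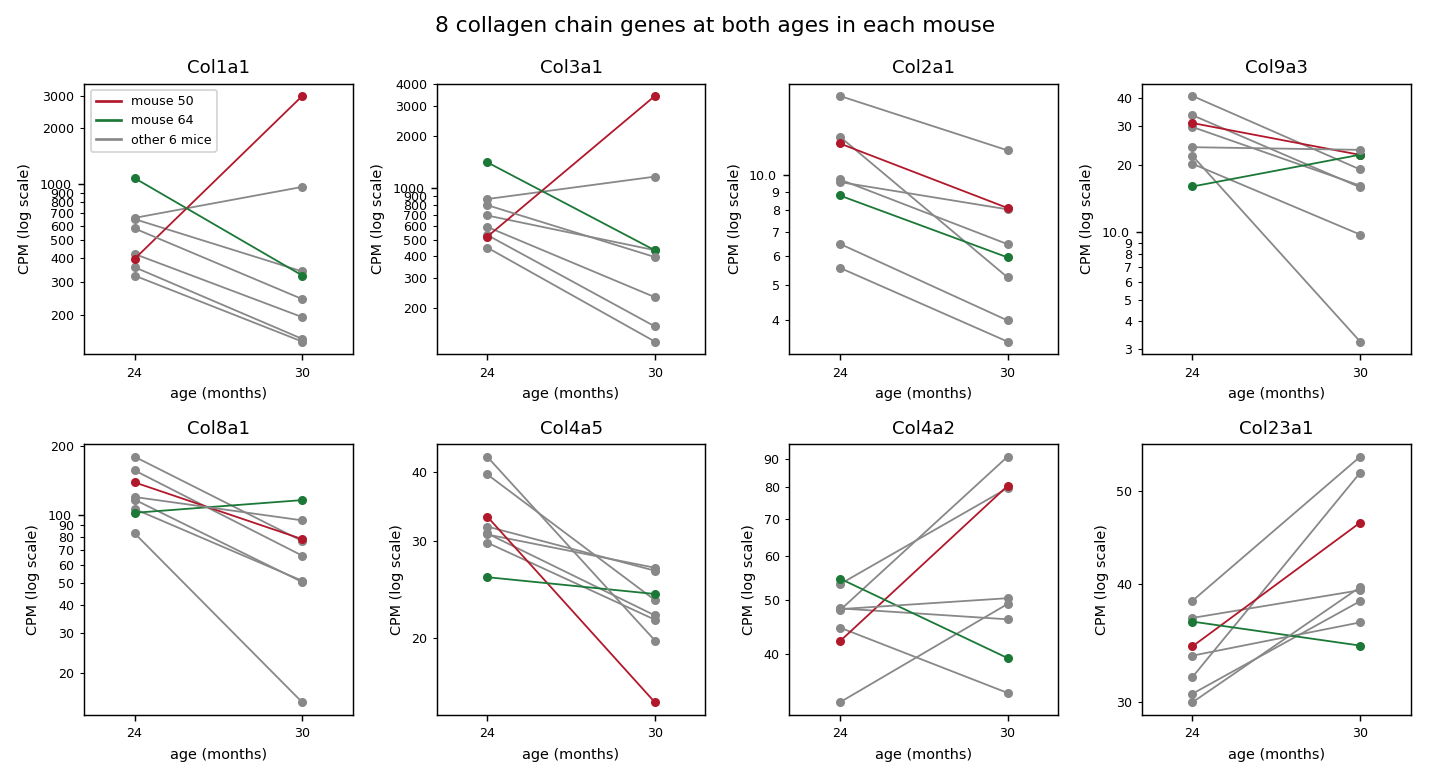
CPM on log axes of 8 collagen chain genes at 24 and 30 months, 1 line per mouse, with mouse 50 in red, mouse 64 in green and the other 6 mice in grey. Mouse 50 was higher at 30 months in Col1a1 and Col3a1 (2990.4 and 3424 CPM), while all 8 lines of Col2a1 and of Col4a5 ran downwards.

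The windows before the start sites of 5 of these genes are shown because their levels differed between the ages in different sets of mice: Col1a2 and Col3a1 were higher at 30 months in mouse 50, and Col11a1, Col11a2 and Col8a1 were lower in mouse 50 as in most others. Each is the 250 bases before the start site of the RefSeq annotation of GRCm38.p6, read 5′ to 3′ on the gene's strand. The positions are chr6:4505368-4505617 (plus strand) for Col1a2, chr1:45311288-45311537 (plus) for Col3a1, chr3:114030290-114030539 (plus) for Col11a1, chr17:34038888-34039137 (plus) for Col11a2 and chr16:57754738-57754987 (minus) for Col8a1. Capitals mark the motif CCAAT, the motif TATAAA and the motif ACAAAG or their reverse complements, searched on both strands, and a match of ACAAAG may share a base with one of TATAAA.
Col1a2: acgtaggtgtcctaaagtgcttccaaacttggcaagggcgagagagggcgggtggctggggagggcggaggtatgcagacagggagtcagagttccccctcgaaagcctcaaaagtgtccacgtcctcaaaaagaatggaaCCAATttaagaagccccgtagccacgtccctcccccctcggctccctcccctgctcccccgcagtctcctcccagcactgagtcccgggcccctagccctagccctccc
Col3a1: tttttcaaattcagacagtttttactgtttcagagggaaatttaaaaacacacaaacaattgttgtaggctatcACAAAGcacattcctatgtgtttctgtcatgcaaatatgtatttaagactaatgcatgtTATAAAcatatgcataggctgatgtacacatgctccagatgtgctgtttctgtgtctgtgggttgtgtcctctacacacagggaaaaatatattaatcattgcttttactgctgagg
Col11a1: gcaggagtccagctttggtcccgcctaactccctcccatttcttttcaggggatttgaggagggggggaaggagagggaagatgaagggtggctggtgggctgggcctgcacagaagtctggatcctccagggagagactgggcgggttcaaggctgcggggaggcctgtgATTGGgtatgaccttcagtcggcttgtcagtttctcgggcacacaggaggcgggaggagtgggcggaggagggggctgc
Col11a2: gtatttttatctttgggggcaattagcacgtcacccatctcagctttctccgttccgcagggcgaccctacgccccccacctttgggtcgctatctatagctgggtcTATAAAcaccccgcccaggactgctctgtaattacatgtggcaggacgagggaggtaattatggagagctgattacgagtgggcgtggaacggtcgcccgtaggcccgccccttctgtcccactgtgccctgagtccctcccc
Col8a1: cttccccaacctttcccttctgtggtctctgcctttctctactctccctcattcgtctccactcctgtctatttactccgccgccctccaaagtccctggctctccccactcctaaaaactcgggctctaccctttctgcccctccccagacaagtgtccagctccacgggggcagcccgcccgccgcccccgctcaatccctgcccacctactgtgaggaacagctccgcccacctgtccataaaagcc
Col1a2 held CCAAT 109 bases before its start and Col11a1 held its reverse complement 79 bases before. Col3a1 held TATAAA at 117 and ACAAAG at 176 bases before its start, and Col11a2 held TATAAA at 143 bases. Col8a1 held none of the 3 in this window. RefSeq windows were at hand for 35 of the 44 genes, 38 windows in all, of which 13 held CCAAT, 5 TATAAA and 4 ACAAAG. Over all 32851 windows of this length the shares were 33.8%, 12.4% and 16.5%. These are matches of letters and no record of binding.

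The 7 cartilage chains had the lowest class median, -0.61. All 7 fitted values were below 0 (48.3% over all genes tested), and 5 were lower at an unadjusted p under 0.05 (background 7.18%). Here mouse 50 was not apart. The median change over the chains was -0.47 in mouse 50, lowest in mouse 29 (-1.37) and above 0 only in mouse 64 (0.27). Leaving out each mouse in turn gave class medians between -0.65 and -0.44.

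Col2a1 (ENSMUSG00000022483, chr15:97975602-98004695, minus strand) encodes the single chain of type II collagen, the main fibril of cartilage. Its lowest, median and highest levels were 5.57, 9.65 and 16.5 CPM at 24 months and 3.50, 6.21 and 11.7 CPM at 30 months. All 8 mice were lower at 30 months, with log2 changes from -1.28 to -0.25, although the ranges of the ages overlapped. The log2 fold change was -0.64 (SE 0.11, edgeR adjusted p = 0.141), a fitted change of -35.8%, and this was the smallest adjusted p of the collagen chain genes in edgeR. DESeq2's Wald test gave an adjusted p of 0.000405.

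The type XI chains lie in the core of type II fibrils. Col11a1 (chr3:114030540-114220718) ranged over 15.6, 20.5 and 30.4 CPM (lowest, median, highest) at 24 months and 10.3, 17.5 and 19.8 CPM at 30 months. It was lower in 8 of 8 mice, in mice 64 and 75 with log2 changes of only -0.06 and -0.05. Its log2 fold change was -0.46 (SE 0.11, edgeR adjusted p = 0.222). Col11a2 (chr17:34039437-34066685) had 12.9, 19.6 and 26.5 CPM at 24 months and 5.62, 13.6 and 16.2 CPM at 30 months. It was lower in 7 of 8 mice, with mouse 64 higher, and its log2 fold change was -0.62 (SE 0.16, edgeR adjusted p = 0.236).

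The type IX chains coat the same fibrils. Col9a3 (chr2:180597790-180622189) had 16.1, 26.9 and 40.9 CPM (lowest, median, highest) at 24 months and 3.24, 17.7 and 23.5 CPM at 30 months. It was lower in 7 of 8 mice, most in mouse 29 (log2 change -2.77), and higher in mouse 64 (0.47). Its log2 fold change was -0.83 (SE 0.28, edgeR adjusted p = 0.316), and 6.07% of its exon bases are shared with Tcfl5 on the opposite strand, and whether the counting used strand is not stated. Col9a1 had 5.29, 8.54 and 14.5 CPM at 24 months and 1.55, 6.61 and 8.32 CPM at 30 months. Mice 64 and 75 were higher and the other 6 lower, and the log2 fold change was -0.61 (SE 0.27, unadjusted p = 0.0463, edgeR adjusted p = 0.406), and without mouse 50 the unadjusted p was 0.0693. Col9a2 was at -0.34 (SE 0.22) and did not reach an unadjusted p of 0.05. Col10a1, the type X chain of hypertrophic cartilage, was at -0.11 (SE 0.36, and -0.31 without mouse 50), with mouse changes from -1.53 to 1.73.

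The 11 tested genes of the cartilage marker list, none of them collagens, had a median log2 fold change of -0.35. At an unadjusted p under 0.05, 4 were lower (background 7.18% of all genes tested) and none higher (background 4.86%). None of the 11 passed the adjusted threshold in edgeR or in DESeq2. Their mean change was above 0 in mice 64 (0.32) and 75 (0.39) and between -0.95 and -0.29 in the other 6. For 10 pairs of a chain and a marker list, the within-mouse log2 changes were correlated over the 8 mice. The pairs were picked after the values had been seen, so the coefficients are a description and no p is given. Col9a3 and the cartilage markers had a Pearson r of 0.90 and a Spearman rho of 0.86, and r was 0.90 without mice 64 and 75, the farthest from the median of the marker list. For Col11a2 r was 0.90 and rho 0.81, with r = 0.77 without these mice. For Col2a1 r was 0.03 and rho 0.19, with r = -0.22 without these mice. Mice 64 and 75, in which the mean of the cartilage markers was higher at 30 months, had Col2a1 changes of -0.56 and -0.59. The part that a different content of cartilage in the clips had in these values was not tested.

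For the dermal chains, Col3a1 and the fibroblast markers had r = 0.92 and rho = 0.90. Without mice 29 and 50, r was 0.73, so the relation rested in part on these mice. Col1a1 had r = 0.86 and rho = 0.55, with r = 0.60 without the same mice. Both ends of each relation come from the same libraries.

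**Figure D4:**
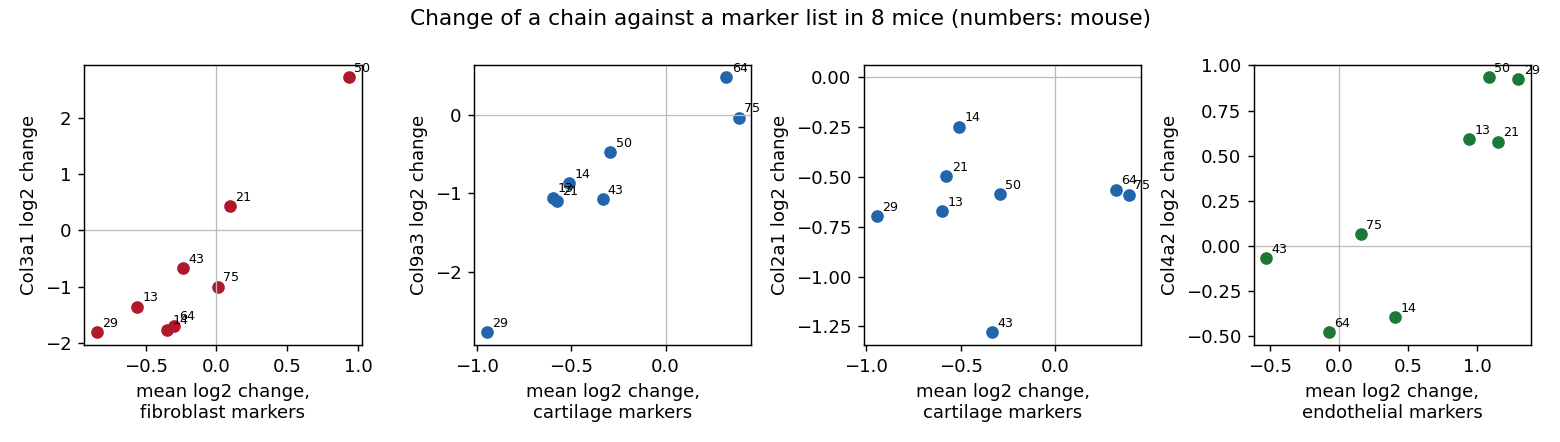
Within-mouse log2 change (30 minus 24 months) of 4 collagen chain genes on the y axis against the mean log2 change of a marker list on the x axis, 1 point per mouse with its number. Over the 8 mice r was 0.92 for Col3a1, 0.90 for Col9a3 and 0.83 for Col4a2, pairs picked after the values had been seen, while Col2a1 lies below 0 in all 8 mice at any change of the cartilage list (r = 0.03).

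The 10 basement membrane chains had a median log2 fold change of -0.17. Of their values, 8 were below 0 (48.3% over all genes tested) and 2 above. At an unadjusted p under 0.05, 2 were lower (background 7.18%). Those 2 were Col4a5 and Col4a6, the neighbours on the X chromosome whose chains form the type IV collagen network found beneath the epidermis. Col4a5 (ENSMUSG00000031274, chrX:141475385-141689234, plus strand) had a lowest, median and highest level of 25.8, 31.4 and 42.6 CPM at 24 months and 15.3, 22.7 and 26.8 CPM at 30 months. All 8 mice were lower at 30 months, and mice 50 and 75 were lower by more than 1 on the log2 scale (-1.11 and -1.10). Its fitted log2 fold change was -0.56 (SE 0.12, edgeR adjusted p = 0.222), a fitted change of -32.2%. DESeq2's Wald test gave an adjusted p of 0.0104.

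Col4a6 (chrX:141165403-141474076, minus strand) starts 1309 bases from the start of Col4a5 and is read in the other direction. It had 58.6, 69.8 and 75.7 CPM (lowest, median, highest) at 24 months and 43.8, 55.2 and 72.8 CPM at 30 months. Here 6 of 8 mice were lower, with mice 13 and 43 slightly higher (0.07 and 0.01). The log2 fold change was -0.29 (SE 0.10, edgeR adjusted p = 0.315). Among 7 keratinocyte markers, 3 were lower (background 7.18% of all genes tested) and 1 higher (background 4.86%) at an unadjusted p under 0.05. Past the adjusted threshold were 0 in edgeR and 1 in DESeq2. Over the 8 mice, the change of Col4a5 and that of the keratinocyte list had r = 0.10 and rho = -0.07, and r without mice 13 and 21 was -0.38.

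Col4a1 and Col4a2 encode the chains of the type IV network present in nearly all basement membranes, vessels included, and were the only basement membrane chains with a fitted change above 0. Col4a1 was at 0.22 (SE 0.19; 0.12 without mouse 50), and Col4a2 at 0.27 (SE 0.17, edgeR adjusted p = 0.541; 0.18 without mouse 50). At 30 months Col4a1 was higher in 4 of 8 mice and Col4a2 in 5 of 8. Of 5 endothelial markers, 3 were higher at an unadjusted p under 0.05 (background 4.86% of all genes tested) and none lower (background 7.18%). Past the adjusted threshold were 0 in edgeR and 1 in DESeq2, and the median log2 fold change of the 5 was 0.51. Over the mice, the change of Col4a2 and that of the endothelial list had r = 0.83 and rho = 0.76, with r = 0.86 without mice 43 and 64. The starts of the 2 genes lie 21 bases apart on chromosome 8, and their exons share 22 bases.

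Col17a1 (chr19:47646344-47692094, minus strand) had 1560.0, 2124 and 2549 CPM (lowest, median, highest) at 24 months and 1116, 1930 and 2513 CPM at 30 months. At 30 months 5 of 8 mice were lower, with largely overlapping ranges, and its log2 fold change was -0.19 (SE 0.17, edgeR adjusted p = 0.657). Leaving out mouse 13 gave -0.31, while leaving out mouse 50 or 64 gave -0.10 or -0.12. Col7a1 (chr9:108953586-108984875, plus strand) had 275, 333 and 358 CPM at 24 months and 199, 267 and 415 CPM at 30 months. Lower values were seen in 6 of 8 mice, and the log2 fold change was -0.24 (SE 0.12, unadjusted p = 0.061, edgeR adjusted p = 0.436). Mouse 13 was higher in both genes (0.64 and 0.36). Col18a1, whose end fragment is endostatin, was at -0.24, and Col15a1, its close relative, at -0.09 (-0.28 without mouse 50). Col4a3 and Col4a4, the chains best known from the kidney filter, were at -0.15 and -0.12, with 60 to 323 counts per library over both genes.

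The 6 FACIT chains had a median of -0.18 (-0.11 without mouse 50 and -0.09 without mouse 29). Of their values, 5 were below 0 (48.3% over all genes tested). Only Col16a1 was lower at an unadjusted p under 0.05 (background 7.18%). Col16a1 (chr4:130047840-130099283, plus strand) had 111, 135 and 158 CPM (lowest, median, highest) at 24 months and 88.0, 114 and 141 CPM at 30 months. Of the mice, 6 of 8 were lower, and the log2 fold change was -0.20 (SE 0.088, unadjusted p = 0.0448, edgeR adjusted p = 0.402). Col14a1, which binds type I fibrils, had 22.3, 26.8 and 43.7 CPM at 24 months and 4.41, 21.1 and 72.0 CPM at 30 months. Mice 50 and 21 were higher and the other 6 lower, like Col1a1 and Col3a1. Its log2 fold change was -0.43 (SE 0.34, edgeR adjusted p = 0.618), and -0.69 (SE 0.27, edgeR adjusted p = 0.376) without mouse 50, but -0.16 without mouse 29. Col12a1 was at -0.20 (-0.33 without mouse 50), Col20a1 at -0.03 and Col22a1 at -0.17 (0.0016 without mouse 50), none with an unadjusted p under 0.05. Col19a1, with 1 to 19 counts per library, was too low to compare (0.38, SE 0.60, and 0.69 without mouse 50).

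**Figure D5:**
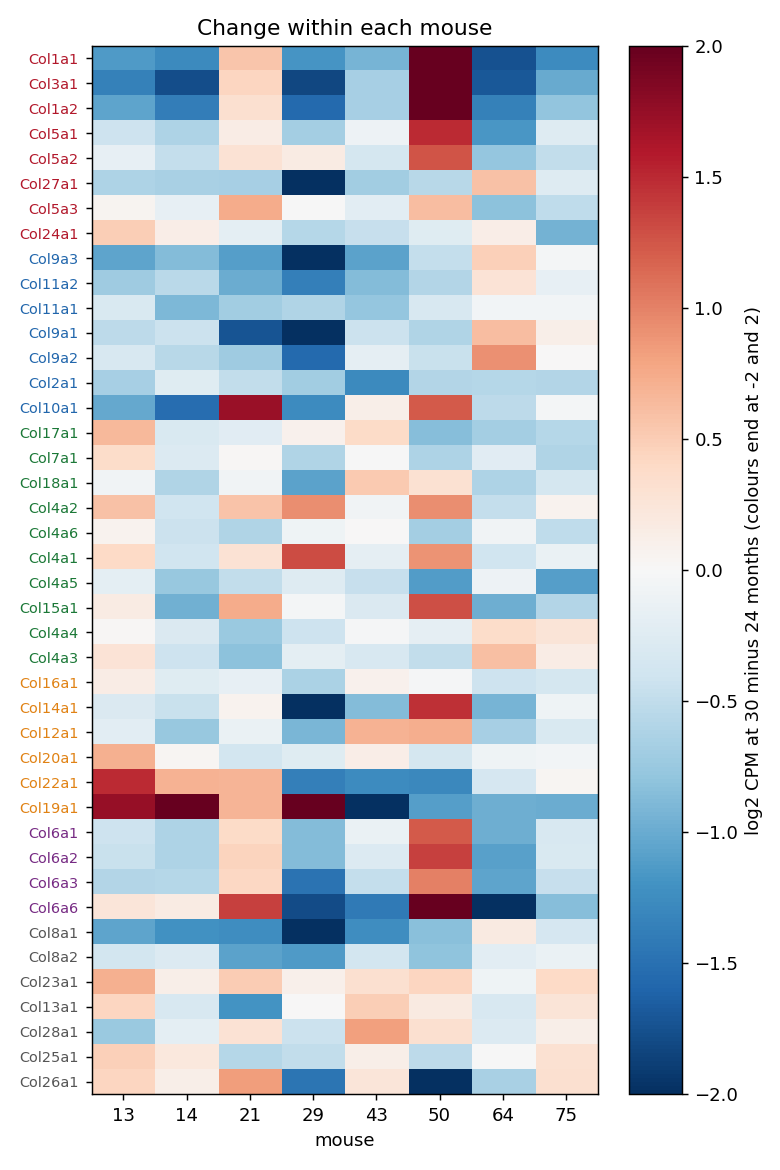
Change in log2 CPM from 24 to 30 months within each of the 8 mice (columns) for 42 collagen chain genes (rows, names coloured by class as in the plot of levels), with blue for lower and red for higher at 30 months and the colours ending at -2 and 2. Mouse 50 is red in Col1a1, Col1a2, Col3a1, Col5a1, Col5a2, Col14a1 and the main type VI chains, and blue in Col2a1, Col4a5 and Col8a1.

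Type VI collagen is built from Col6a1, Col6a2 and 1 of several longer chains. Of the 6 type VI genes, 5 were tested, their median log2 fold change was -0.24, and none reached an unadjusted p of 0.05 with all mice. Leaving out mouse 50 gave a median of -0.45, leaving out mouse 29 gave -0.13, and leaving out mouse 64 gave -0.11. Col6a1 (chr10:76708792-76726168, minus strand) had 188, 205 and 332 CPM (lowest, median, highest) at 24 months and 111, 177 and 442 CPM at 30 months. Its neighbour Col6a2 (chr10:76595762-76623630, minus strand) had 112, 127 and 212 CPM at 24 months and 65.2, 105 and 289 CPM at 30 months. Both were lower in the same 6 of 8 mice, again with mice 50 and 21 higher. The log2 fold changes were -0.22 (SE 0.22, edgeR adjusted p = 0.692) for Col6a1 and -0.24 (SE 0.24, edgeR adjusted p = 0.699) for Col6a2. Without mouse 50 they were -0.42 and -0.45, with unadjusted p of 0.0182 and 0.0162 (edgeR adjusted p = 0.339 and 0.336), while without mouse 64 both were at -0.11 and without mouse 29 at -0.13 and -0.14. Col6a3 was at -0.41, and at -0.60 without mouse 50. Over the mice, the change of Col6a1 and that of the fibroblast list had r = 0.90 and rho = 0.81, with r = 0.61 without mice 29 and 50. Col6a6 was at -0.28 (SE 0.48, and -0.63 without mouse 50). Col6a5, with 0 to 67 counts per library, was at 1.72 (SE 0.93, and 0.91 without mouse 50).

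The remaining 7 genes held both the lowest and one of the few higher values. Col8a1 (ENSMUSG00000068196, chr16:57624258-57754737, minus strand), a chain of the short-chain type VIII collagen, had 82.7, 118 and 179.8 CPM (lowest, median, highest) at 24 months and 14.9, 71.1 and 116 CPM at 30 months. In 7 of 8 mice it was lower, most in mouse 29 (log2 change -2.47), and it was higher in mouse 64 (0.19). For Col8a1 the log2 fold change was -1.02 (SE 0.23, edgeR adjusted p = 0.222), a fitted change of -50.5%, and leaving out each mouse in turn gave -1.19 to -0.82. DESeq2's Wald test gave an adjusted p of 0.0012. Col8a2 (chr4:126286793-126314330, plus strand), its partner chain, had 41.2, 45.1 and 57.0 CPM at 24 months and 18.9, 34.2 and 41.7 CPM at 30 months. All 8 mice were lower, and the ranges overlapped only between 41.2 and 41.7 CPM. For Col8a2 the log2 fold change was -0.54 (SE 0.12, edgeR adjusted p = 0.222).

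Col8a1 and Col27a1, neither of them in the cartilage class here, were among the pairs picked for their resemblance to the cartilage marker list. For Col8a1 r was 0.91 and rho 0.76, with r = 0.87 without mice 64 and 75. For Col27a1 r was 0.84 and rho 0.76, with r = 0.85 without the same mice.

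Col23a1 (ENSMUSG00000063564, chr11:51289920-51583918, plus strand), a transmembrane collagen, was the 1 chain gene higher at an unadjusted p under 0.05. It had 30.0, 34.0 and 38.4 CPM (lowest, median, highest) at 24 months and 34.4, 39.5 and 54.4 CPM at 30 months. It was higher in 7 of 8 mice, with mouse 64 slightly lower (-0.08) and ranges that overlapped. Its fitted log2 fold change was 0.31 (SE 0.087, unadjusted p = 0.00463, edgeR adjusted p = 0.269), about 24.3% higher. Of the other transmembrane chains, Col13a1 was at -0.05 and Col25a1 at -0.06. Col28a1 was at -0.01 and Col26a1, with 3 to 19 counts per library, at -0.23 (0.05 without mouse 50), all 4 without an unadjusted p under 0.05.

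Chains that assemble with each other were also compared as ratios of counts per kilobase within a library, which need no library size. Of 12 ratios, 4 had a p under 0.05 when the signs of the 8 within-mouse changes were exchanged (two-sided exact permutation test), whose smallest possible p is 0.00781, and 0 did after Benjamini-Hochberg adjustment over the 12. Col9a3 against Col9a2 was lower at 30 months in 8 of 8 mice, with a mean log2 change of -0.51 ± 0.41 (SD, n = 8, exact permutation p = 0.00781, the smallest it can give, adjusted 0.0938). The ratio lay between 3.77 and 5.37 at 24 months and between 2.04 and 5.21 at 30 months. Col4a5 against Col4a6 was lower in 7 of 8 mice, with a mean log2 change of -0.27 ± 0.24 (SD, n = 8, exact permutation p = 0.0234, adjusted 0.125). Col6a3 against Col6a1 had a mean log2 change of -0.19 ± 0.22 (exact permutation p = 0.0313, adjusted 0.125) and Col9a1 against Col9a2 one of -0.28 ± 0.37 (exact permutation p = 0.0469, adjusted 0.141), each lower in 6 of 8 mice. Col8a1 against Col8a2 was lower in 7 of 8 mice by a mean of -0.48 ± 0.57 on the log2 scale (exact permutation p = 0.0703, adjusted 0.169).

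The steadiest ratio was Col6a1 to Col6a2. It lay between 2.97 and 3.34 at 24 months and between 2.90 and 3.42 at 30 months, a 1.18-fold range over 16 libraries in which Col6a1 itself varied 3.98-fold. The level of the ratio depends on the pooled exon lengths, 4380 bases for Col6a1 and 8326 for Col6a2, but its fold range does not. Col1a1 to Col1a2 varied 1.83-fold over the libraries while Col1a1 varied 20.9-fold, and its mean log2 change was -0.01 ± 0.35 (exact permutation p = 0.938, adjusted 0.938). The other ratios, of Col3a1 to Col1a1, Col5a1 to Col5a2, Col4a1 to Col4a2, Col4a3 to Col4a4 and Col11a1 to Col11a2, had mean log2 changes between -0.14 and 0.15, none with a p under 0.05.

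Genes that modify, fold, process or cross-link collagen were taken from a list of 32, of which 31 were tested. None passed the adjusted threshold in edgeR or in DESeq2. At an unadjusted p under 0.05, 5 were lower (the background above was 7.18%) and 0 were higher, with a median log2 fold change of -0.11. The 5 were P4ha1, a prolyl hydroxylase subunit (-0.24), P3h3, of the prolyl 3-hydroxylase family (-0.35), Colgalt1, which adds galactose to hydroxylysine (-0.17), and the procollagen proteases Tll1 (-0.62) and Adamts3 (-0.52). The chaperone Serpinh1 was at -0.23 (SE 0.16) and the cross-linking enzyme Lox at 0.51 (SE 0.35). Without mouse 50, 9 of the list were lower at an unadjusted p under 0.05 (background 7.11% of all genes tested). Of 8 collagen receptors, among them Ddr1, Ddr2 and the collagen-binding integrins, 0 passed the adjusted threshold in edgeR or DESeq2 and 0 had an unadjusted p under 0.05 in edgeR, with a median of -0.13.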

How the data were processed

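RNA-seq was analysed for 16 ear libraries of 8 mice. Per the submitters' processing notes, reads were handled with CASAVA 1.8.4, aligned with TopHat2 2.1.0 to mm10 (GRCm38) and counted with HTSeq 0.6.1p1; the strand setting is not given in the sources used here. The authors deposited raw counts for every gene and library, with no normalization. Reads outside genes or on several genes stood in 5 summary lines (18.7% to 21.1% of the reads of a library) and were left out. GENCODE M21 had 45143 of the 45706 genes and supplied symbols, positions and exon lengths. Depth limits only the lowest chain genes, which had under 20 counts in a library.

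The counts were fitted with edgeR 4.0.16 in R 4.3.3, using TMM factors, the filterByExpr filter and a quasi-likelihood test whose model held the mouse and the age, and p-values were adjusted after Benjamini and Hochberg over 21526 genes with a threshold of 0.05. Standard errors of fold changes were worked back from this test, as the absolute log2 fold change divided by the square root of its F statistic. The block was used since the study clipped the same animals at both ages. The residuals around each age mean had a median correlation of -0.0229 between the libraries of 1 mouse and of -0.00544 between those of different mice. On simulated counts for 21526 genes of this comparison, 196 of 200 changed genes were called, all in the right direction, and 10 unchanged ones. The planted changes were the same in every mouse, so the share called where mice differ was not tested. Nor was it tested at fold changes as small as those fitted for most collagen chain genes. Ratios of chains were tested by an exact sign-flip test over 256 sign patterns, with scipy 1.17.1, numpy 2.4.6 and pandas 2.3.3. Marker list changes are means of log2 CPM with a pseudocount of 0.1. Given in full are the 2 chains with the highest mean RPKM in each of the 6 classes, every member with an unadjusted p under 0.05 and every member with 1 direction in 8 of 8 mice.

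The alternatives were DESeq2 size factors, the Wald test of DESeq2 1.42.0, no filter on low counts, no mouse term, age in months as a covariate, and each mouse left out in turn. The 10 correlations were added after seeing the data. The members and lists were chosen with earlier results of these data known. Muscle, fat and Schwann cell lists were also read (see the closing section).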

Additional observations from a re-analysis of the deposited data

Results flagged for a closer look

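Dixon's criterion at the 95% level was applied to each age group and to the within-mouse changes of the genes given in full and of the lists, 79 groups in all. It marked 12 values, 4 of them in mouse 50. For independent groups of normal values, chance would give about 1 in 20 groups, or 3.95. The 79 groups reuse the same libraries and hold chains that changed together, so the 12 cannot be read as an excess over chance. At 24 months, mouse 64 was far above the others in Col1a1 (1082 CPM, next 661) and Col3a1 (1410 CPM, next 861), and mouse 21 in Col8a2 (57.0 CPM, next 46.7). At 30 months, mouse 50 was far above the others in Col1a1 (2990.4 CPM, next 970.1), Col3a1 (3424 CPM, next 1163) and Col14a1 (72.0 CPM, next 31.0), and mouse 29 was far below them in Col27a1 (20.4 CPM, next 71.4). Among the within-mouse changes, that of Col2a1 in mouse 43 was -1.28 (next -0.70), and the mean change of the collagen-modifying list in mouse 50 was 0.30 (next -0.03).

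Among the lists of other tissue, the mean log2 change of the muscle markers was -3.70 in mouse 43 (next 0.03) and that of the fat markers -1.99 in the same mouse (next -0.02). The Schwann cell markers stood at 0.56 in mouse 13 (next 0.12). In 7 of 8 mice the muscle list was higher at 30 months, most in mice 13 (3.34) and 21 (3.12). Its median log2 fold change was 1.001, with all 7 genes above 0 and 0 at an unadjusted p under 0.05 in edgeR (0 past the adjusted threshold in edgeR or DESeq2). The summed muscle markers ranged from 566 to 9202 CPM (median 1151) at 24 months and from 815 to 6452 CPM (median 2647) at 30 months. Their part in the values of the collagen chain genes was not tested.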

How the results depend on the processing

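Of the 19 genes given in full, 17 kept the direction of their log2 fold change under all 13 alternatives. The other 2 were Col1a1 and Col3a1, which without the replicate block on the mouse stood at 0.26 and 0.12. In the fit without this block the median of the fibrillar chains was 0.03. There 2 chain genes were higher at an unadjusted p under 0.05, and the share of all genes was not taken. Without pairing, the ratio of Col4a5 to Col4a6 (mean log2 change -0.27) had an exact permutation p of 0.00218 (adjusted 0.0261). DESeq2's Wald test called 6 chain genes at an adjusted p under 0.05 (all lower, background 0.763%) and 2 higher at an unadjusted one. For the latter the share of all genes was not taken. Leaving out each mouse in turn gave 0 chain genes past the adjusted threshold each time. At an unadjusted p under 0.05, 9 to 18 were lower (18 without mouse 50) and 1 to 3 higher (2 without mouse 13, 3 without mouse 64). The modifying genes lower at that level numbered 4 to 9 (9 without mouse 50) and the receptors 0 to 1 (1 without mouse 13, 29 or 50). Without mouse 50, 7.11% of all genes were lower and 4.5% higher at that level, and these shares were not taken for the other mice left out. Mean log2 changes of ratios that lay close to 0 changed sign when single mice were left out. They ran from -0.069 to 0.059 for Col1a1 to Col1a2, from -0.068 to 0.012 for Col4a3 to Col4a4, and from -0.0084 to 0.031 for Col6a1 to Col6a2. The causes were not tested.

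The depth leaves Col6a4, Col6a5, Col19a1 and Col26a1 without a readable change. With 8 pairs the exact test of the ratios, which exchanges the signs of the changes, cannot give a p under 0.00781.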
